A study of Mus musculus with 3 samples.

Results

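The brain of mice given AGNHW was compared with the brain of sham-operated mice, gene by gene, over all 17992 gene symbols counted in the series. The comparison used 2 of the 3 libraries: the library titled AGNHW and the library titled Sham, with 1 library on each side. All mice were adult, wild type (WT) and of the C57BL/6 strain, and total RNA was taken from brain. The sham mice had no treatment, and the AGNHW mice were given AGNHW at 3 mg per g per day; AGNHW is Angong Niuhuang Wan, a compound Chinese medicine used in stroke. The third library, Vehicle, came from the middle cerebral artery occlusion model without the medicine. Only the vehicle group is labelled with the occlusion and the AGNHW label is silent on it, so effects of surgery, occlusion and medicine cannot be told apart between AGNHW and sham. Neither the brain region, the time after surgery, the number of mice per library nor the length of treatment is given in the sources used here.

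Middle cerebral artery occlusion cuts the blood supply of the cortex and striatum on the operated side and is the common rodent model of ischaemic stroke. Injured brain usually shows reactive astrocytes, activated microglia, entry of blood leukocytes, and later the birth of neurons and the sprouting of vessels. Type I interferon, a cytokine of antiviral defence, binds a receptor that activates transcription factors, STAT2 and IRF9 among them, and these turn on a set of interferon-stimulated genes through a short promoter element. Glucocorticoid hormone, released under stress, acts through its own nuclear receptor and raises another well-known set of genes in astrocytes, vessels and oligodendrocytes.

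Total counts were 18286151 for sham, 15718594 for vehicle and 18184691 for AGNHW. Levels are given as CPM, that is, counts brought to a common library total after scaling by the trimmed mean of M-values, and a ratio is AGNHW over sham on that scale. Each ratio has a 95% counting interval in parentheses. It covers counting error only, not the spread between animals, and no difference has a replicate check. All 16 markers of the main brain cell types were measured in both libraries, with summed levels of 12493 CPM in sham and 12930 CPM in AGNHW. The vehicle library stood apart by pituitary transcripts. Growth hormone (Gh) had 0 (sham), 39065 (vehicle) and 4 counts (AGNHW), and prolactin (Prl) had 0, 5606 and 1 in the same order. Neither hormone exceeded 4 counts in AGNHW or in sham.

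Of the genes counted, 15558 had a mean of at least 1 CPM over the 3 libraries and were compared. A gene was called higher or lower when its ratio reached 1.5 in either direction and its counting interval excluded 1. By this rule 517 genes (3.32%) were higher in AGNHW and 851 (5.47%) were lower, while 14190 (91.2%) were neither. Beyond a ratio of 2 there were 179 higher and 192 lower. The lower side was led by interferon-stimulated genes, which made up 9 of the 10 lowest named genes. The higher side included the acute-phase protein gene Lcn2, the cell-cycle inhibitor gene Cdkn1a and the lipid-droplet gene Plin4, all known to respond to glucocorticoids.

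**Figure D1:**
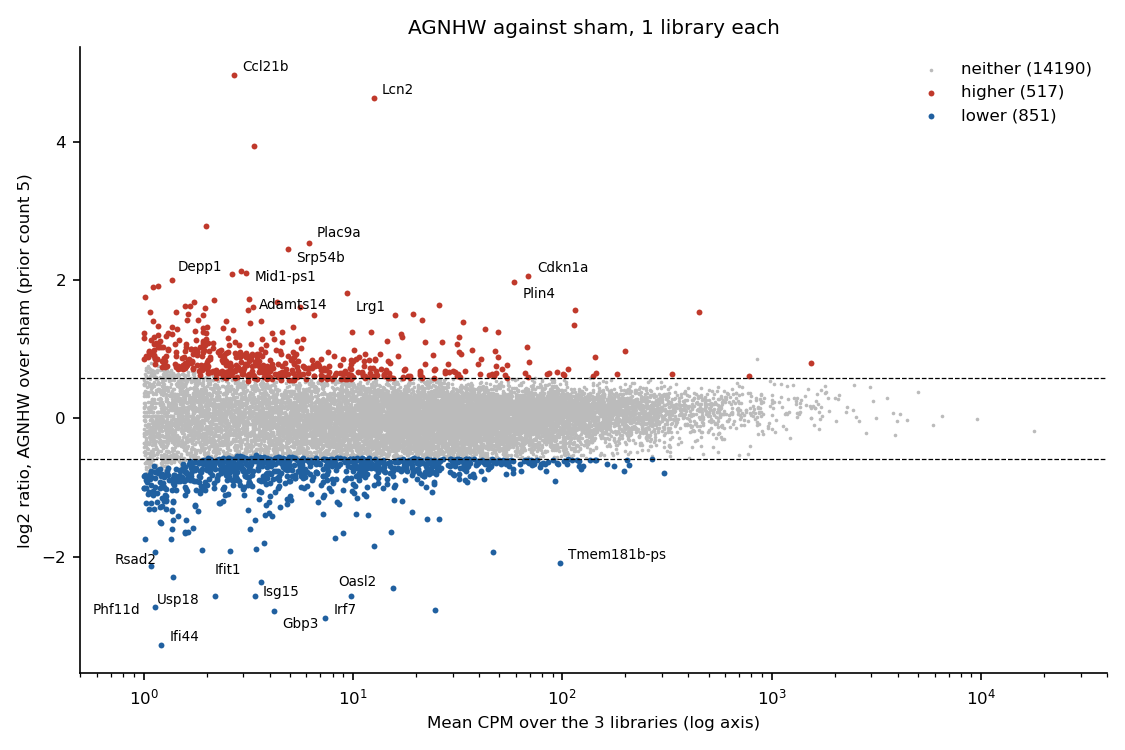
Each point is a gene, placed by its mean CPM over the 3 libraries (log axis) and its log2 ratio of AGNHW over sham with a prior count of 5. Red points are the 517 higher genes, blue points the 851 lower genes, dashed lines mark a ratio of 1.5 in either direction, and the 10 highest and 10 lowest named genes are labelled.

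The ratio followed the length and base composition of the transcripts. Over 10074 genes of at least 10 CPM, length and GC content together accounted for 37.8% of the variance in log2 ratio. In 10 bins of equal size by length, the median log2 ratio went from 0.22 in the bin of the shortest transcripts (median 1116 bases) to -0.24 in the bin of the longest (median 8831 bases). By GC content it went from -0.30 at a median of 40.1% to 0.16 at 60.1%. The length bins in vehicle over sham spanned a wider range, from 0.47 to -0.44. After this trend was subtracted, 399 genes (2.58%) were higher and 515 (3.34%) lower. Without the correction, 316 and 386 of them had been called in the same direction. The text says where this correction alters the call of a named gene, and the part of RNA quality or library preparation in the trend was not tested.

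**Figure D2:**
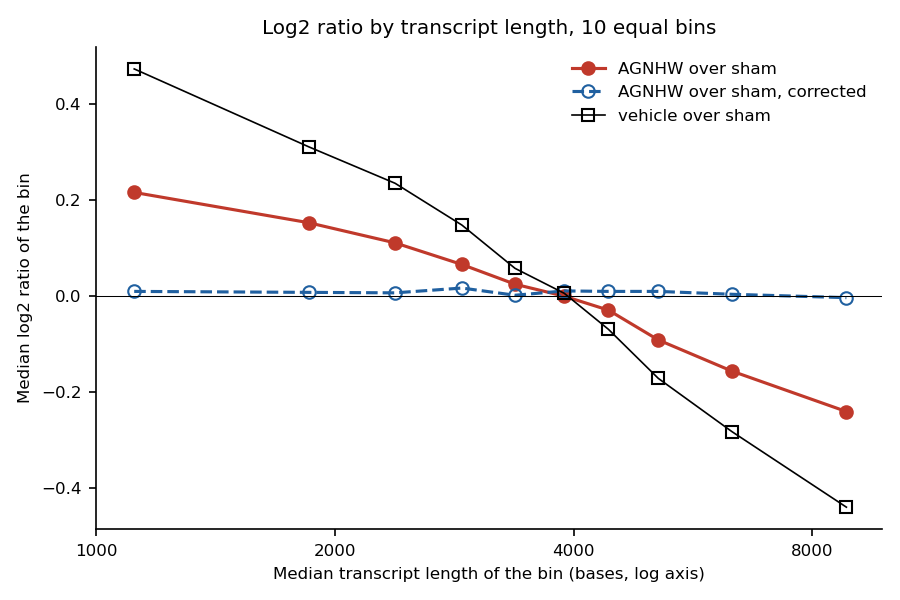
The horizontal axis is the median transcript length of each of 10 equal bins in bases (log axis) and the vertical axis is the median log2 ratio of the bin. The AGNHW over sham line runs from 0.22 to -0.24, the vehicle over sham line from 0.47 to -0.44, and the corrected line stays near 0.

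A total of 55 gene lists was used to describe pathways and cell types. Over all measured genes the median log2 ratio was 0.00, with quartiles of -0.23 and 0.20. The interferon-stimulated genes had the lowest median, -1.12, and the glucocorticoid-responsive genes the highest, 0.40. Ribosomal protein genes, at 0.35, and respiratory chain genes, at 0.24, also lay above the upper quartile of all genes, though 0 members of either list passed the size rule. Homeostatic microglial genes, at -0.30, and glutamatergic synapse genes, at -0.26, lay below the lower quartile.

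**Figure D3:**
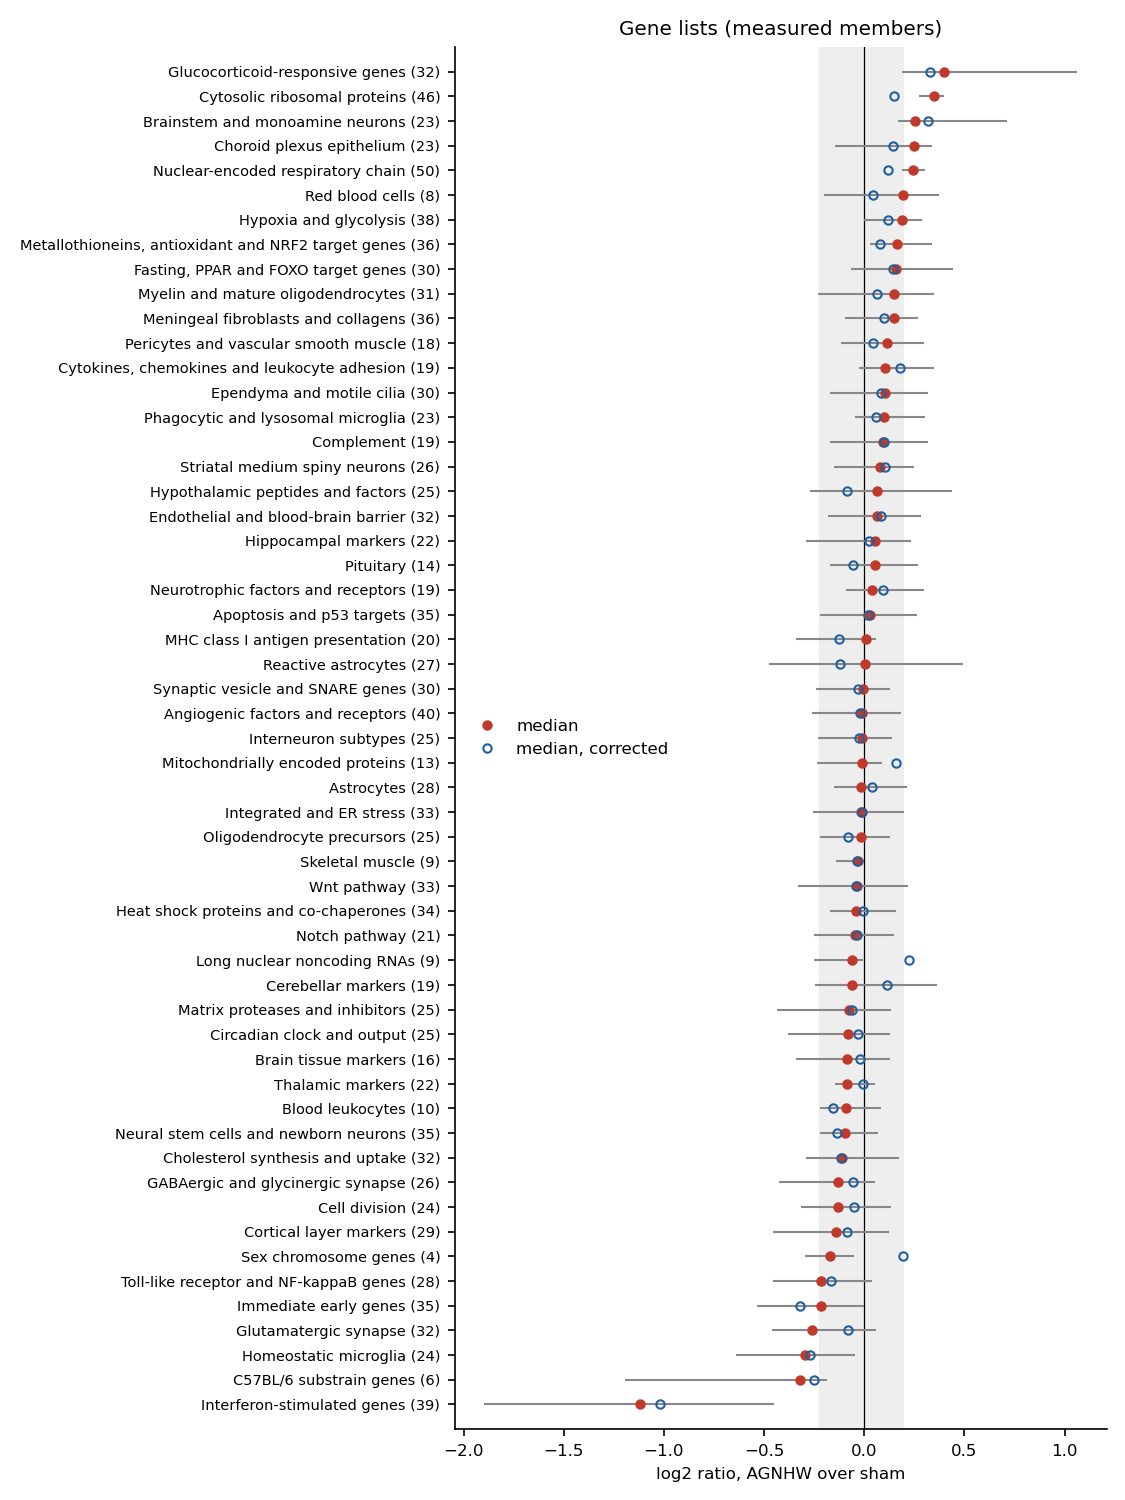
Each row is a gene list with its number of measured members, and the horizontal axis is the log2 ratio of AGNHW over sham. Filled points are list medians, grey bars the quartiles, open points the medians after correction for length and GC, and the grey band the quartiles of all measured genes; interferon-stimulated genes stand at -1.12 and glucocorticoid-responsive genes at 0.40.

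Interferon-stimulated genes were lower in AGNHW than in sham, from sensors and transcription factors to antiviral effectors. Of 41 genes listed, 39 were measured: 28 were lower, 0 were higher and 11 were neither, beside 5.47% of all genes lower. The lowest was Ifi44, which had 64 counts in sham and 2 in AGNHW. The list is shown here together with promoter sequences, because the response element of this pathway lies close to the start of transcription.

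The interferon-stimulated response element is the binding site of a complex that holds STAT2 and IRF9. Its core, searched on both strands as GAAA, any 2 bases and GAAA again, was found in the 300-base promoter window of 16 of the 30 measured list members that had a window in the table, or 53.3%. It was found in 3.39% of the 11553 measured genes with a window and in 3.44% of all 32851 windows. Of the 21 list members that were lower and had a window, 15 held the core. The windows of Ifit1, Isg15, Gbp3 and Rsad2 are printed below because these were the members among the 10 lowest named genes whose windows held a match. They are from RefSeq on GRCm38.p6, are given 5′ to 3′ on the strand of the gene, and have the matched letters in capitals. The table also holds a second window for Gbp3, at chr3:142560106-142560405, which held 0 matches and is not printed; a gene was counted when any of its windows held the core. A match on the opposite strand reads TTTC, any 2 bases and TTTC.
Ifit1 (chr19:34640639-34640938, plus strand): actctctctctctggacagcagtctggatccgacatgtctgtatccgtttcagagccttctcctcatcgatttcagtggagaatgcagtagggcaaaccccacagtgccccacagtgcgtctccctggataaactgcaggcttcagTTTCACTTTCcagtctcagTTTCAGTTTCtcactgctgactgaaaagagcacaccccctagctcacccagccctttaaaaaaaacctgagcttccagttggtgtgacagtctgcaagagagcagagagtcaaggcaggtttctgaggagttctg
Isg15 (chr4:156200769-156201068, minus strand): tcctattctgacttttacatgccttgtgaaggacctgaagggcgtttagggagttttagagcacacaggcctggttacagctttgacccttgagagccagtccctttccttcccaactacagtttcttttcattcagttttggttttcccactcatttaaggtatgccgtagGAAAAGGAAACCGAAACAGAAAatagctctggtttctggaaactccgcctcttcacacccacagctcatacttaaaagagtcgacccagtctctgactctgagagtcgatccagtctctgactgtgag
Gbp3 (chr3:142559794-142560093, plus strand): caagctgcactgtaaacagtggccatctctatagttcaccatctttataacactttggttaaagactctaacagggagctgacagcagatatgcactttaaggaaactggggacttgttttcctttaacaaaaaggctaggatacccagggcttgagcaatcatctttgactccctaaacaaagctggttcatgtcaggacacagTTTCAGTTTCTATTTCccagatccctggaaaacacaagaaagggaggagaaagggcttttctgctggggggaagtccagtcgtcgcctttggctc
Rsad2 (chr12:26456403-26456702, minus strand): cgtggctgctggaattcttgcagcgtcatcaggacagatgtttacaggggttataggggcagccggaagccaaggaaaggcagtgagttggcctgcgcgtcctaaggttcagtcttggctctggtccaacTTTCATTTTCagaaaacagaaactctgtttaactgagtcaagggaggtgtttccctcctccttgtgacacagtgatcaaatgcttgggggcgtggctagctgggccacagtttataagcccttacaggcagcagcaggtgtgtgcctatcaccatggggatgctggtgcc
The Ifit1 window held 2 matches and the printed Gbp3 window also held 2. The Isg15 window held 3 overlapping matches, and the Rsad2 window held 1. The windows of Ifi44, Irf7, Phf11d and Oasl2 did not hold these letters. A match is a string of letters and not a measured binding site.

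The transcription factors of the pathway differed among themselves. Irf7, the factor that amplifies the interferon response, was at 17.9 (sham), 2.04 (vehicle) and 2.19 CPM (AGNHW), and was 8.18-fold lower in AGNHW than in sham (5.88 to 11.7). Sham was thus the high library for Irf7, and vehicle and AGNHW lay close together. Stat2 had a ratio of 0.726 (0.651 to 0.808) and Irf9 a ratio of 0.734 (0.623 to 0.864), and neither reached the limit. Irf1, which also answers interferon gamma, had a ratio of 1.09 (0.842 to 1.42).

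Sensors of viral RNA were lower as well. Ddx58, which encodes RIG-I, was 2.25-fold lower (1.69 to 3.04), and Ifih1, which encodes MDA5, was 1.97-fold lower (1.32 to 2.98). Their regulator Dhx58 was 2.19-fold lower (1.37 to 3.59). Eif2ak2, the RNA-dependent kinase PKR that stops translation, was 2.08-fold lower (1.60 to 2.72).

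The antiviral effectors held the largest ratios. Oasl2, a member of the oligoadenylate synthetase family, was at 23.5 (sham), 2.04 (vehicle) and 3.72 CPM (AGNHW), 6.31-fold lower in AGNHW (4.88 to 8.27). Ifit1, which binds foreign RNA caps, was at 8.77, 0.657 and 1.48 CPM, 5.93-fold lower (3.93 to 9.27). Isg15, a ubiquitin-like modifier, was at 8.13, 0.920 and 1.15 CPM, 7.07-fold lower (4.46 to 11.8). In each of these 3 genes sham was the highest library and vehicle the lowest. Usp18, the protease that removes Isg15 from its targets, had 98, 11 and 12 counts and was 7.93-fold lower (4.34 to 15.9). Rsad2, which encodes viperin, had 55, 13 and 7 counts and was 7.63-fold lower (3.46 to 19.9); here AGNHW was the lowest library. Ifi44, at 2 counts in vehicle as in AGNHW, was 31.1-fold lower (8.25 to 262), and Phf11d was 13.6-fold lower (5.02 to 51.6) with 56, 3 and 4 counts.

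Other effectors were lower by smaller factors. Ifit3 was at 24.8 (sham), 6.44 (vehicle) and 6.68 CPM (AGNHW), 3.71-fold lower (3.04 to 4.57), and Ifit2 was 1.94-fold lower (1.54 to 2.46). Bst2, which encodes the virus-tethering protein tetherin, was 3.46-fold lower (2.70 to 4.46). Oas2 was 5.58-fold lower (2.61 to 13.7) and Oas1a 4.41-fold lower (2.27 to 9.40). Rtp4 was 2.83-fold lower (2.04 to 3.99), Trim30a 3.82-fold lower (2.14 to 7.25), Parp14 2.29-fold lower (1.66 to 3.19) and Ifi35 1.66-fold lower (1.19 to 2.33). Mx1, with 36, 5 and 6 counts, and Zbp1, with 29, 2 and 7, fell below the limit on mean CPM and were not compared.

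The interferon-inducible GTPases, which attack the vacuoles of intracellular parasites, formed a lower group of their own. Gbp3 was at 10.3 (sham), 1.05 (vehicle) and 1.26 CPM (AGNHW), 8.19-fold lower (5.30 to 13.2). Gbp2 was 3.80-fold lower (2.65 to 5.59) and Gbp7 2.91-fold lower (1.73 to 5.10). Iigp1 was 3.82-fold lower (2.18 to 7.09), Irgm1 2.02-fold lower (1.56 to 2.62) and Igtp 1.82-fold lower (1.36 to 2.45). These families, like the Oas and Ifit families, hold similar copies whose reads may have been split by the authors' counting, so single members are less certain than the group.

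Members that also serve antigen processing were not called. Psmb8 and Psmb9, subunits of the immunoproteasome, had ratios of 0.742 (0.513 to 1.07) and 1.06 (0.655 to 1.71), and the peptide transporter gene Tap1 had a ratio of 0.748 (0.551 to 1.01). The other members inside the limit were Cmpk2, Xaf1, Mx2, Ifi27 and Lgals3bp, with ratios between 0.726 and 0.912. After correction for length and GC, 29 members were lower, with Psmb8 added, and the median was -1.02. The summed level of the list was 427 (sham), 196 (vehicle) and 222 CPM (AGNHW). In vehicle against sham, which uses the same sham library, 31 members were lower and 0 higher, beside 14.2% of all genes lower and 8.66% higher, and the median was -1.48. A high level in the sham library and a low level in the other libraries cannot be told apart with 1 library per group.

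**Figure D4:**
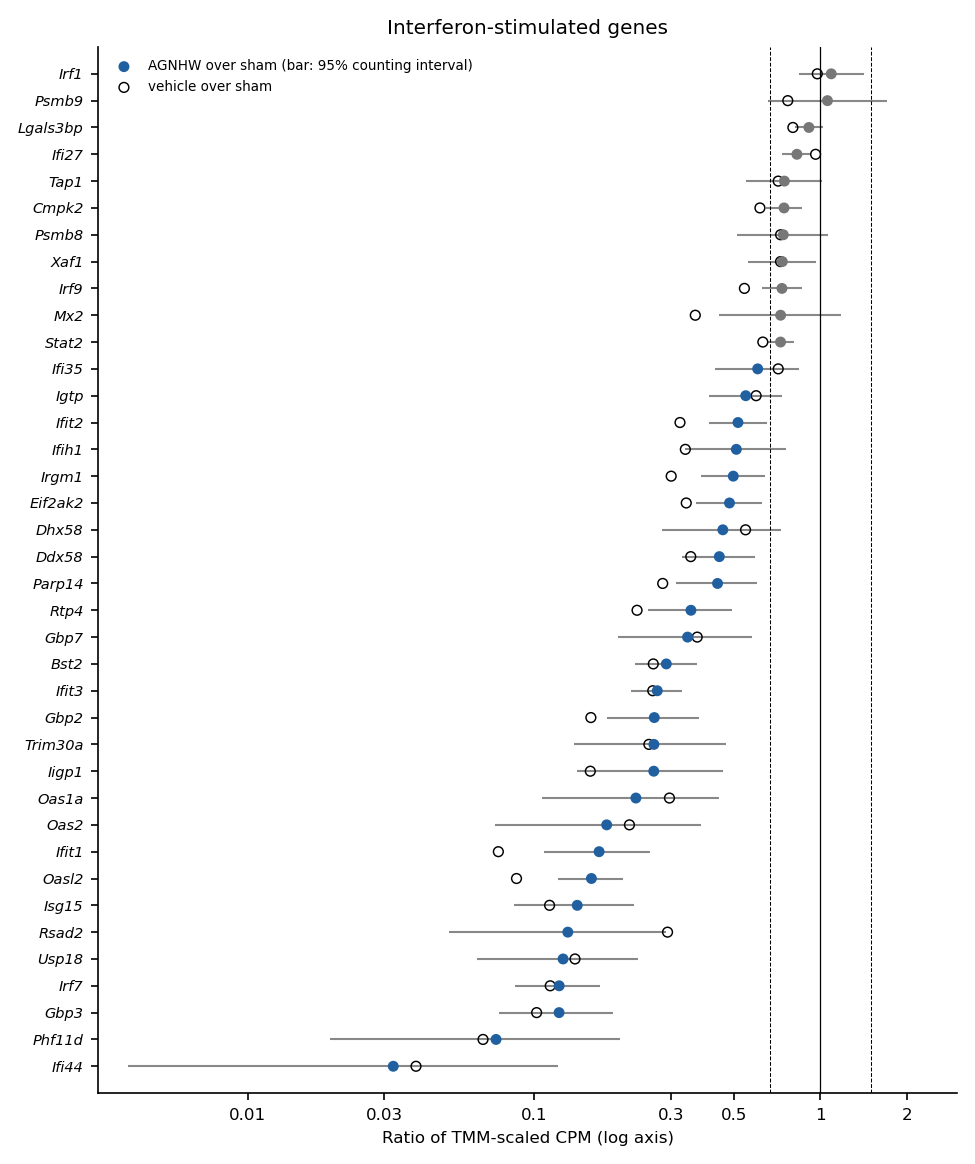
Each row is 1 of the 38 plotted interferon-stimulated genes and the horizontal axis is the ratio of CPM to sham (log axis). Filled points are AGNHW over sham with 95% counting intervals (blue: lower by the size rule, grey: neither), open circles are vehicle over sham, and dashed lines mark a ratio of 1.5 in either direction; 27 of 38 filled points are blue, from Ifi35 down to Ifi44.

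Class I antigen presentation had 2 of 20 measured members lower and 0 higher, beside 5.47% and 3.32% of all genes. The median log2 ratio was 0.01. After correction 3 members were lower, beside 3.34% of all genes, and the median was -0.13. Lower without correction were H2-T24, a class I-like gene, and Nlrc5, the transactivator of class I genes. H2-T24 had 108 (sham), 11 (vehicle) and 24 counts (AGNHW) and was 4.37-fold lower (2.79 to 7.11). Nlrc5 was 3.51-fold lower (1.87 to 7.07). H2-K1, a classical class I molecule, had a ratio of 1.49 (1.33 to 1.67). H2 genes have near-identical copies, and their values are uncertain. Complement genes had 2 higher, 1 lower and 16 neither of 19 measured. C2, a protease of the classical pathway, was 2.40-fold higher (1.42 to 4.22) on 21, 40 and 49 counts. The anaphylatoxin receptor gene C5ar1 was 1.80-fold higher (1.01 to 3.30) and was not called after correction, and the complement inhibitor gene Cd59a was 1.65-fold lower (1.36 to 2.02).

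Cytokine and innate sensing genes were only partly measured. The cytokine, chemokine and adhesion list held 37 genes, of which 23 were counted and 19 measured. The deposited counts had no entry for Tnf, Il6, Il1a or Il1b, nor for the chemokine genes Cxcl1, Cxcl2, Ccl2 and Ccl3. The calls given here are therefore no statement about these cytokines. Among the 19 measured genes, 2 were higher and 1 was lower, beside 3.32% and 5.47% of all genes. The higher ones were the interleukin-6 receptor gene Il6ra, 1.74-fold (1.37 to 2.21), and Socs3, a feedback inhibitor of cytokine signalling, 1.70-fold (1.26 to 2.32), which was inside the limit after correction. Among 28 Toll-like receptor and NF-kappaB genes, the co-receptor gene Cd14 was 2.0-fold higher (1.33 to 3.07) and Nfkbiz 1.55-fold lower (1.17 to 2.07). The list median was -0.22.

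Glucocorticoid-responsive genes were the list with the highest median. Of 33 genes listed, 32 were measured: 13 were higher, 0 lower and 19 neither, beside 3.32% of all genes higher, and the median log2 ratio was 0.40. Vehicle and AGNHW were both above sham in each of the 13. Correction for length and GC left 13 higher and a median of 0.33.

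The largest ratio in the list was that of Lcn2, a siderophore-binding lipocalin of the acute phase, at 0.478 (sham), 19.0 (vehicle) and 18.2 CPM (AGNHW), 38.0-fold higher in AGNHW than in sham (19.8 to 83.9). The sham value rests on 9 counts. Cdkn1a, which encodes the cell-cycle inhibitor p21, was at 20.5, 100.2 and 86.2 CPM in the same order, 4.21-fold higher (3.77 to 4.72). Plin4, a coat protein of lipid droplets, was at 18.2, 85.7 and 72.5 CPM, 3.98-fold higher (3.53 to 4.49). Sham was the low library in all 3 genes, and vehicle and AGNHW were within 1.5-fold of each other.

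Genes that are standard readouts of the glucocorticoid receptor were among the 13. Fkbp5, a co-chaperone that dampens the receptor, was at 54.7 (sham), 145 (vehicle) and 140 CPM (AGNHW), 2.56-fold higher (2.38 to 2.76). Map3k6, a stress kinase gene, was 2.90-fold higher (2.39 to 3.52), and Sult1a1, a sulfotransferase gene, 2.66-fold higher (2.31 to 3.07). Tgm2, the tissue transglutaminase, was at 11.2, 22.2 and 30.4 CPM, 2.73-fold higher (2.32 to 3.21), with AGNHW the highest library. Hif3a, an inhibitory partner of the hypoxia factors, was 2.27-fold higher (1.99 to 2.60), and the lipase gene Pnpla2 was 2.05-fold higher (1.86 to 2.25). Arrdc2 was at 23.7, 73.1 and 47.1 CPM, 1.98-fold higher (1.77 to 2.23), and Angptl4, a secreted inhibitor of lipoprotein lipase, was at 3.19, 11.2 and 5.04 CPM, 1.58-fold higher (1.13 to 2.22). In the last 2 genes AGNHW lay between sham and vehicle. Galnt15 and the transcription factor gene Cebpb completed the 13, at 1.83-fold (1.47 to 2.30) and 1.80-fold (1.22 to 2.68).

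Other well-known members of the list stayed inside the limit. Tsc22d3, which encodes the glucocorticoid-induced leucine zipper GILZ, had a ratio of 1.25 (1.16 to 1.34), the kinase gene Sgk1 1.17 (1.10 to 1.25) and the clock gene Per1 1.06 (1.01 to 1.11). Ddit4, an inhibitor of mTOR signalling, was at 65.9 (sham), 145 (vehicle) and 97.0 CPM (AGNHW), a ratio of 1.47 (1.37 to 1.58). Mt1, a metallothionein, was at 192, 421 and 276 CPM, a ratio of 1.43 (1.37 to 1.5). Dusp1, a phosphatase of MAP kinases that neuronal activity also induces, had a ratio of 0.831 (0.754 to 0.915), and Klf9 one of 0.893 (0.844 to 0.946). In vehicle against the same sham library, 20 members were higher and 2 lower, and the median was 0.72.

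**Figure D5:**
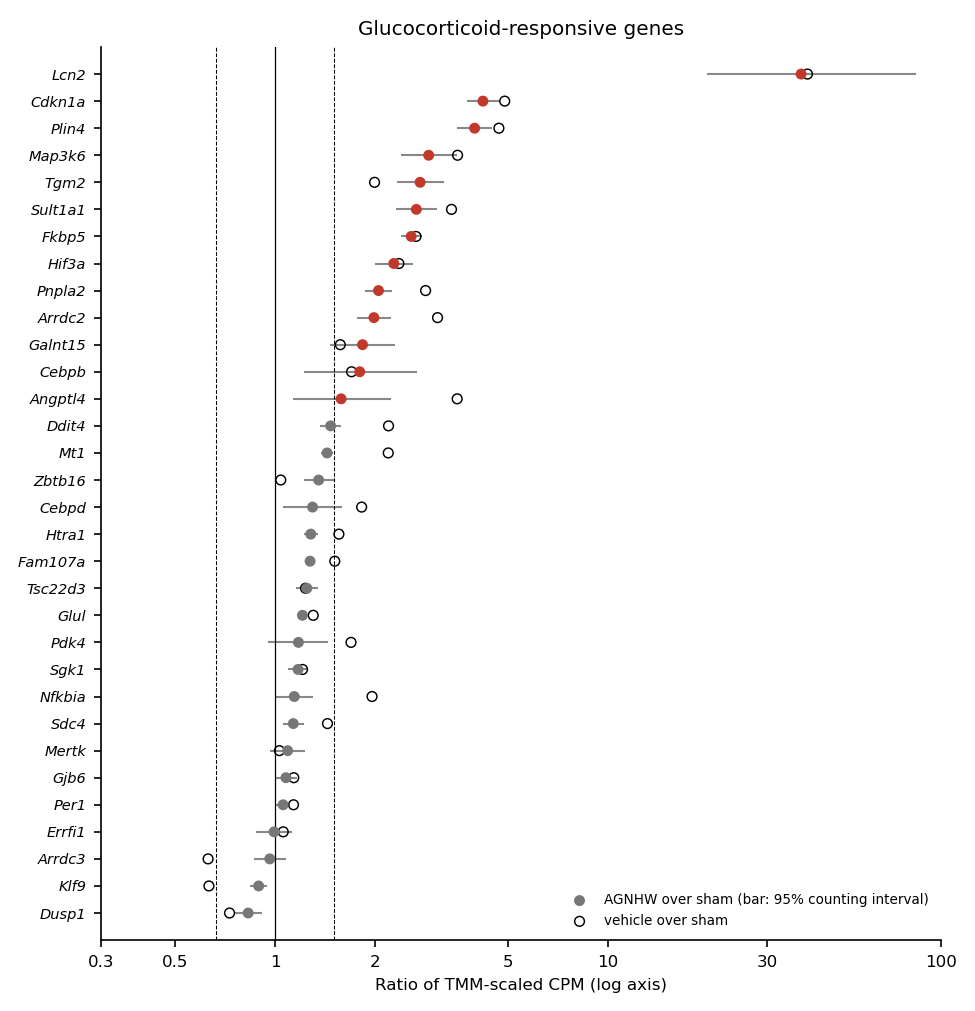
Each row is a measured glucocorticoid-responsive gene and the horizontal axis is the ratio of CPM to sham (log axis). Filled points are AGNHW over sham with 95% counting intervals (red: higher by the size rule, grey: neither), open circles are vehicle over sham, and dashed lines mark a ratio of 1.5 in either direction; 13 of 32 filled points are red, from Angptl4 up to Lcn2 at 38.0.

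Lipid and stress genes overlapped with that list. For comparison with the counts below, 3.32% of all genes were higher and 5.47% lower. After correction the shares were 2.58% and 3.34%. Of 30 measured fasting, PPAR and FOXO target genes, 5 were higher and 0 lower, and 3 were higher after correction. Besides Cdkn1a, Plin4 and Angptl4 these included Cpt2, an enzyme of fatty acid import into mitochondria, 1.57-fold higher (1.22 to 2.03). Cpt2 was inside the limit after correction. Among 38 hypoxia and glycolysis genes, 3 were higher and 0 lower: Hif3a, the vasodilator peptide gene Adm, 1.98-fold (1.34 to 2.98), and Ankrd37, 1.56-fold (1.08 to 2.26), the last not called after correction. Among 35 apoptosis and p53 target genes 5 were called higher, with Cdkn1a first, and the death receptor gene Fas was at 1.54, 2.76 and 2.90 CPM, 1.88-fold higher (1.18 to 3.07). Sesn2, Phlda3 and Casp8 had ratios between 1.54 and 1.59, and the caspase inhibitor gene Xiap was 1.70-fold lower (1.53 to 1.89). Of these 4 genes only Casp8 was still called after correction.

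The remaining genes among the 10 highest belonged to several classes. Lrg1, an acute-phase glycoprotein that acts on vessels, was at 3.24 (sham), 12.8 (vehicle) and 12.1 CPM (AGNHW), 3.73-fold higher (2.80 to 5.04). Depp1, a target of FOXO factors, had 15, 54 and 80 counts and was 5.50-fold higher (3.14 to 10.3). Adamts14, a procollagen-processing protease, was at 1.33, 3.16 and 5.04 CPM, 3.79-fold higher (2.41 to 6.16). In these genes both other libraries exceeded sham. Plac9a had 34, 75 and 214 counts and was 6.49-fold higher (4.50 to 9.61), and the pseudogene Mid1-ps1 had 17, 55 and 87 counts and was 5.27-fold higher (3.11 to 9.46). For Plac9a and Mid1-ps1 no sum over copies was made, and the part of reads split among copies was not tested.

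Genes with near-identical copies need a separate reading. Ccl21b, a lymphoid chemokine gene, had 0 (sham), 0 (vehicle) and 148 counts (AGNHW), which is at least 50.8-fold higher against a floor of 3 counts. With its copy Ccl21a added, the counts were 6, 6 and 165, a 28.3-fold difference (12.7 to 78.3). Srp54b, a copy of a signal recognition particle gene, had 37, 13 and 217 counts and was 6.04-fold higher (4.25 to 8.81), but the sum of 3 Srp54 copies was 430, 243 and 605, a ratio of 1.45 (1.28 to 1.64). Tmem181b-ps, the pseudogene among the 10 lowest, was at 167 (sham), 87.4 (vehicle) and 39.0 CPM (AGNHW), 4.28-fold lower (3.94 to 4.65). The sum over 3 Tmem181 copies was 2.59-fold lower (2.45 to 2.74). The sums were chosen after the values were seen.

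Of 35 measured immediate early genes, which neuronal activity induces, 9 were lower in AGNHW, 1 was higher and 25 were neither, beside 5.47% of all genes lower and 3.32% higher. The median log2 ratio was -0.22, and after correction it was -0.32 with 9 lower and 1 higher. Fos, the transcription factor gene used as a marker of recent neuronal firing, was at 14.9 (sham), 6.58 (vehicle) and 8.05 CPM (AGNHW), 1.85-fold lower (1.51 to 2.27). Npas4, induced by calcium entry, was at 28.4, 15.6 and 17.0 CPM, 1.67-fold lower (1.45 to 1.93). Egr3 was at 110 (sham), 39.8 (vehicle) and 69.4 CPM (AGNHW), 1.59-fold lower (1.48 to 1.70). Sham was the high library in each. Egr2, Nr4a3 and Nr4a2, further inducible transcription factor genes, were 1.89-fold (1.28 to 2.83), 1.76-fold (1.46 to 2.13) and 1.57-fold (1.36 to 1.83) lower.

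Effector genes of neuronal activity were the other lower members. Bdnf, a neurotrophin of synaptic plasticity, was at 15.8 (sham), 6.90 (vehicle) and 7.89 CPM (AGNHW), 2.01-fold lower (1.64 to 2.47). Homer1, a scaffold of glutamate receptors with an activity-induced short form, was at 66.7, 24.7 and 36.2 CPM, 1.84-fold lower (1.68 to 2.03; corrected ratio 0.720, inside the limit). The prostaglandin synthase gene Ptgs2 was 1.58-fold lower (1.09 to 2.31; corrected ratio 0.773, inside the limit). Maff, a small MAF factor gene that stress also induces, was the exception, at 2.39, 9.99 and 7.23 CPM and 3.02-fold higher (2.14 to 4.34). The other neurotrophic factors showed 2 higher, Nrtn at 1.55-fold (1.17 to 2.04) and Ntf3 at 1.56-fold (1.01 to 2.43), both with corrected ratios inside the limit.

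Of 24 measured homeostatic microglial genes, 7 were lower, 1 higher and 16 neither, beside 5.47% of all genes lower and 3.32% higher. The list median was -0.30 (corrected -0.27, with 6 lower and 0 higher). P2ry12, the purine receptor that steers microglial processes, was at 16.7 (sham), 5.13 (vehicle) and 7.94 CPM (AGNHW), 2.10-fold lower (1.72 to 2.58). Cx3cr1, the fractalkine receptor gene, was at 48.2, 20.0 and 29.3 CPM, 1.65-fold lower (1.48 to 1.84). Vehicle was the lowest library and sham the highest in both. Gpr34 was 2.52-fold lower (1.79 to 3.61), P2ry13 1.82-fold (1.42 to 2.34), Fcrls 1.77-fold (1.47 to 2.13) and Olfml3 1.70-fold (1.45 to 1.99). The higher member was Ltc4s, the leukotriene C4 synthase gene, at 1.67-fold (1.03 to 2.75; corrected ratio 1.35, inside the limit). The summed level of the list went the other way, at 1018 (sham), 1178 (vehicle) and 1152 CPM (AGNHW). Sparc, a matrix protein gene that other brain cells express too, made up 566, 833 and 772 CPM of these sums and had a ratio of 1.36 (1.33 to 1.40).

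Those pan-microglial and activation markers that were measured were inside the limit. Cst7, Itgax and Clec7a, listed with the phagocytic genes, were not among the gene symbols counted. Aif1, which encodes IBA1, was at 3.88 (sham), 3.75 (vehicle) and 3.72 CPM (AGNHW), a ratio of 0.960 (0.679 to 1.35). Of 23 phagocytic and lysosomal genes, 0 were higher and 0 lower, and their summed level was 5861 CPM in sham and 7601 CPM in AGNHW. Within it Apoe, a lipid carrier, had a ratio of 1.37 (1.36 to 1.39), the ferritin gene Fth1 1.39 (1.37 to 1.41) and Gpnmb 0.695 (0.489 to 0.981) on 86, 57 and 58 counts. In bulk tissue fewer cells of a type and less RNA per cell cannot be told apart, here and for every cell type that follows.

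Astrocyte genes as a class were near sham, with 0 of 28 measured members higher and 2 lower. Aqp4, the water channel of astrocyte endfeet, was at 53.4 (sham), 18.5 (vehicle) and 32.8 CPM (AGNHW), 1.63-fold lower (1.47 to 1.80; corrected ratio 0.752, inside the limit). Fabp7, a fatty acid binding protein of radial glia and astrocytes, had 257, 167 and 138 counts, 1.81-fold lower (1.46 to 2.24), and here AGNHW was the lowest library. Gfap, the intermediate filament that defines reactive astrocytes, was at 430 (sham), 238 (vehicle) and 248 CPM (AGNHW), 1.74-fold lower (1.67 to 1.80), and remained so after correction (1.95-fold).

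The reactive astrocyte list split in both directions, with 6 of 27 measured members higher and 5 lower, beside 3.32% and 5.47% of all genes. The median log2 ratio was 0.00. Higher were Lcn2, Tgm2 and Fkbp5, described above, and Ch25h, the cholesterol 25-hydroxylase, with 16, 31 and 44 counts, 2.83-fold (1.57 to 5.38). The sphingosine kinase gene Sphk1, 1.73-fold (1.33 to 2.25), and the ceruloplasmin gene Cp, 1.55-fold (1.32 to 1.82), were also higher. Lower were Gfap, Gbp2, Ptgs2, Cd44, the hyaluronan receptor, 1.87-fold (1.27 to 2.79), and Tgm1, with 43, 4 and 9 counts, 4.64-fold (2.23 to 10.8). Of these 11 genes, Gbp2 is also in the interferon list and Lcn2, Tgm2 and Fkbp5 are in the glucocorticoid list. After correction 8 members were higher and 6 lower, beside 2.58% and 3.34% of all genes, and the median was -0.12.

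Genes of neural stem cells and newborn neurons were called in both directions. Of 35 measured, 3 were lower, 1 higher and 31 neither, beside 5.47% of all genes lower and 3.32% higher. The list median was -0.10. After correction 1 was lower and 1 higher, beside 3.34% and 2.58% of all genes. Dcx, the microtubule protein doublecortin of migrating newborn neurons, was at 26.4 (sham), 12.7 (vehicle) and 15.5 CPM (AGNHW), 1.70-fold lower (1.47 to 1.98); its corrected ratio of 0.777 was inside the limit. Neurod1, a neurogenic factor, was 1.52-fold lower (1.17 to 1.97), with a corrected ratio of 0.711, also inside. The stem cell markers Nes and Sox2 were inside the limit without correction. Nes was at 7.97, 10.8 and 6.57 CPM, a ratio of 0.824 (0.643 to 1.05), and Sox2 at 36.2, 21.6 and 30.7 CPM, a ratio of 0.849 (0.758 to 0.951). Hes5, a Notch target that keeps progenitors undifferentiated, was the higher member, at 3.51, 5.65 and 6.95 CPM, 1.98-fold (1.46 to 2.71).

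Proliferation genes were only partly measured. Ccnb1, Cdk1, Bub1 and Aurkb were not among the gene symbols counted, and Top2a fell below the limit on mean CPM. Mki67, the marker of cycling cells, had 33 (sham), 15 (vehicle) and 20 counts (AGNHW), a ratio of 0.625 (0.340 to 1.12), so no difference was detectable at this depth. Of 24 measured cell division genes, 2 were higher and 1 was lower, beside 3.32% and 5.47% of all genes. Cdkn1a, which stops the cycle, was the largest, the mitotic kinase gene Aurka was 1.74-fold higher (1.16 to 2.66), and Mcm3, part of the replication helicase, was 1.74-fold lower (1.13 to 2.73). Of 33 Wnt pathway genes the receptor genes Fzd2 and Fzd6 went opposite ways, 1.74-fold higher (1.53 to 1.98) and 1.65-fold lower (1.27 to 2.14). Apc was 1.58-fold lower (1.51 to 1.66), with a corrected ratio of 0.816 inside the limit.

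Endothelial and barrier genes were near the share of all genes called. Of 32 measured, 2 were higher, 1 lower and 29 neither, beside 3.32% and 5.47% of all genes, and after correction 1 was higher and 0 lower. Vwf, the von Willebrand factor of endothelial storage granules, was at 22.9 (sham), 49.8 (vehicle) and 56.2 CPM (AGNHW), 2.46-fold higher (2.19 to 2.75). Ly6c1 was 1.54-fold higher (1.41 to 1.69; corrected ratio 1.37, inside the limit), and Ptprb, an endothelial phosphatase gene, was 1.52-fold lower (1.33 to 1.73; corrected ratio 0.797, inside the limit). General endothelial markers were not called. Pecam1 was at 23.2, 28.1 and 25.7 CPM, a ratio of 1.11 (0.969 to 1.26), and the tight junction gene Cldn5 at 31.6, 35.3 and 42.7 CPM, a ratio of 1.35 (1.21 to 1.51).

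Angiogenic signalling genes had 3 higher, 2 lower and 35 neither of 40 measured, and the list median was -0.01. Among ligands, Vegfa was at 52.6 (sham), 35.6 (vehicle) and 45.8 CPM (AGNHW), a ratio of 0.871 (0.794 to 0.956). The placental growth factor gene Pgf was 1.55-fold higher (1.10 to 2.21; corrected ratio 1.35, inside the limit), and Adm and Angptl4 were the other 2 higher members. Among receptors, the VEGF receptor gene Kdr had a ratio of 0.710 (0.570 to 0.884). Its co-receptor gene Nrp1 was 1.62-fold lower (1.29 to 2.04; corrected ratio 0.705, inside the limit), and Met, the receptor of hepatocyte growth factor, was 2.43-fold lower (1.63 to 3.68). Of the pericyte genes Kcnj8, a potassium channel gene, was 1.78-fold higher (1.29 to 2.47). Among matrix proteases Mmp9, which degrades basement membrane, was at 1.81, 2.70 and 3.72 CPM, 2.06-fold higher (1.35 to 3.21).

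Called genes of the glutamatergic and of the GABAergic and glycinergic lists were all lower before correction. Of 32 measured glutamatergic synapse genes, 5 were lower and 0 higher, beside 5.47% and 3.32% of all genes, and the list median was -0.26. With the correction it was -0.08, and 1 member was lower, Slc17a8, a vesicular glutamate transporter gene, at 1.84-fold (1.22 to 2.81). The glutamate receptor genes Gria2, Gria3 and Grm5 were 1.61-fold (1.54 to 1.69), 1.57-fold (1.47 to 1.67) and 1.74-fold (1.60 to 1.89) lower, and their corrected ratios, 0.876, 0.802 and 0.733, were inside the limit. These receptors have long transcripts. Of 26 GABAergic and glycinergic genes, 4 were lower and 0 higher, and after correction 2 were lower and 1, Glra3, was higher. The shares of all genes after correction were 3.34% lower and 2.58% higher. Synaptic vesicle and SNARE genes had 1 higher and 1 lower of 30. Vamp1, a vesicle SNARE gene, was at 246 (sham), 371 (vehicle) and 384 CPM (AGNHW), 1.56-fold higher (1.5 to 1.62), and was still called after correction (ratio 1.77). Rims1, a scaffold gene of the release site, was 1.62-fold lower (1.53 to 1.72; corrected ratio 0.705, inside the limit).

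Receptor subunits of GABA-A had the largest ratios among synaptic genes. Gabra2 was at 72.7 (sham), 48.3 (vehicle) and 18.9 CPM (AGNHW), 3.85-fold lower (3.42 to 4.35), with AGNHW below both other libraries. Gabrb2 was at 31.5, 4.47 and 9.91 CPM, 3.17-fold lower (2.68 to 3.77), with vehicle the lowest. Both calls held after correction. Gabra2 is also known to differ in level between C57BL/6 substrains, as is Wdfy1, an endosomal adaptor gene, which was at 37.8, 26.0 and 13.6 CPM and 2.79-fold lower in AGNHW (2.41 to 3.23). The labels give the strain as C57BL/6 with no substrain, and the part of substrain in these 2 values was not tested. Of the 6 measured genes of the substrain list, 2 were lower and 0 higher.

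Markers of brain regions were compared to describe the tissue taken. Cortical layer genes had 5 lower and 0 higher of 29, beside 5.47% of all genes lower, and 2 lower after correction, beside 3.34%. Hippocampal genes had 2 higher and 3 lower of 22, with 2 higher and 1 lower after correction, and C1ql3, a synaptic organiser, was at 13.4, 3.29 and 4.98 CPM, 2.69-fold lower (2.11 to 3.45). Striatal genes had 2 higher of 26, among them Ppp1r1b, which encodes DARPP-32, at 553, 957 and 842 CPM and 1.52-fold higher (1.48 to 1.56; corrected ratio 1.31, inside the limit). Thalamic genes had 1 lower of 22. Of 23 brainstem and monoamine genes 7 were higher and 1 lower, beside 3.32% and 5.47% of all genes, and the list median was 0.25 (corrected 0.32, with 5 higher and 0 lower).

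The 7 higher members of the brainstem list were of several kinds. Slc6a4, the serotonin transporter gene, had 1 (sham), 103 (vehicle) and 20 counts (AGNHW), a ratio of 20.6 (3.30 to 854). Ddc, which makes dopamine and serotonin from their precursors, was at 16.3 (sham), 43.7 (vehicle) and 34.6 CPM (AGNHW), 2.13-fold higher (1.85 to 2.44). Th, the tyrosine hydroxylase gene, was at 10.2, 15.8 and 18.3 CPM, 1.79-fold higher (1.5 to 2.15). The midbrain and brainstem factor genes En1 and Gata3 were 2.62-fold (1.27 to 5.84) and 2.36-fold (1.38 to 4.14) higher on at most 48 counts. Slc18a3, the vesicular acetylcholine transporter gene, was 1.70-fold higher (1.19 to 2.45) and the synuclein gene Sncg 1.66-fold higher (1.31 to 2.12), both inside the limit after correction. The lower member was Slc5a7, the choline transporter gene, at 1.72-fold (1.04 to 2.89; corrected ratio 0.721, inside the limit). Tph2, the enzyme of brain serotonin synthesis, had 16, 64 and 21 counts and a ratio of 1.35 (0.672 to 2.77). The list's summed level was 427 CPM in sham and 511 CPM in AGNHW, and the part of dissection in these values was not tested.

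Oligodendrocyte genes had single large members. Of 31 measured myelin genes, 2 were higher and 1 was lower. Apod, a lipid-binding apolipoprotein of oligodendrocytes and perivascular cells, was at 206 (sham), 542 (vehicle) and 599 CPM (AGNHW), 2.91-fold higher (2.81 to 3.02). Ugt8a, the enzyme that makes galactosylceramide of myelin, was at 26.2, 9.73 and 11.4 CPM, 2.30-fold lower (1.95 to 2.72). Precursor genes had 0 higher and 3 lower of 25, namely Pcdh15, Enpp6 and Ptprz1, at 1.87-fold (1.5 to 2.34), 1.71-fold (1.27 to 2.32) and 1.53-fold (1.41 to 1.66). Only Pcdh15 was still called among these 3 after correction.

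Ribosomal and respiratory genes lay above sham together by small factors. Of 46 measured cytosolic ribosomal protein genes, 0 passed the size rule, yet all 46 had a log2 ratio above 0, and the list median was 0.35 (0.15 after correction, when 1 member, Rpl30, was called higher). Rps27a, a further ribosomal protein gene that was not on the list and is named after its values were seen, was 2.96-fold higher (2.74 to 3.20). Of 50 nuclear-encoded respiratory chain genes, 0 passed and 48 were above 0, and the list median was 0.24 (corrected 0.12). Over all genes, 7774 of 15558 were above 0. Both lists hold short transcripts, and length and GC moved with the ratio in all genes as given above. Mitochondrially encoded genes had a median of -0.01, with mt-Atp8 at 141, 181 and 277 CPM, 1.96-fold higher (1.87 to 2.06), and mt-Nd3 at 21.3, 10.7 and 40.3 CPM, 1.89-fold higher (1.67 to 2.14). The other 11 were inside the limit.

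Stress and metabolic lists were close to all genes. Antioxidant and NRF2 genes had 1 higher and 1 lower of 36, and the list median was 0.16. The higher one was Gstm5, 1.57-fold (1.48 to 1.67), and the lower one was the cystine transporter gene Slc7a11, 1.66-fold (1.43 to 1.92), both inside the limit after correction. Heat shock genes had 0 higher and 0 lower of 34, stress genes of the endoplasmic reticulum 1 and 1 of 33, cholesterol genes 0 and 1 of 32 and clock genes 0 and 1 of 25. Promoter elements of 3 lists, the immediate early genes among them, were searched in the same windows. The E-box CACGTG was in 5 of 19 clock gene windows (26.3%, against 11.4% of measured genes), and TGACNNNGC, the antioxidant response element, in 10 of 30 (33.3%, against 16.7%). The cyclic AMP response element TGACGTCA was in 3 of 27 immediate early gene windows (11.1%, against 3.48%). Among called members with a window, the element of the list was held by 0 of 1 clock gene and 1 of 2 antioxidant genes. For the immediate early genes it was 1 of 9, and that gene was Maff, which was higher.

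Markers of neighbouring tissue and of blood were also compared. Of 14 measured pituitary genes 1 was higher and 1 lower, and their summed level was 669 (sham), 4586 (vehicle) and 698 CPM (AGNHW). Lhx3, a pituitary and motor neuron factor, had 1, 33 and 15 counts, a ratio of 15.5 (2.38 to 651), and the prohormone convertase gene Pcsk1 was 1.98-fold lower (1.68 to 2.33). Pomc, the precursor of ACTH, had 56 (sham), 12008 (vehicle) and 40 counts (AGNHW), a ratio of 0.736 (0.478 to 1.12). Of 8 red cell genes 0 were called, and the haemoglobin gene Hbb-bs, whose copies make it uncertain, was at 25.2, 85.5 and 33.6 CPM, a ratio of 1.33 (1.18 to 1.5). Choroid plexus genes had 2 higher and 1 lower of 23, with a summed level of 892 CPM in sham and 1001 CPM in AGNHW, and skeletal muscle genes had 1 and 0 of 9.

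Meningeal genes had the larger difference in summed level, 1716 (sham), 2832 (vehicle) and 2497 CPM (AGNHW). Of 36 measured, 3 were higher and 2 lower, and after correction 0 were higher and 0 lower. Most of the sum was Ptgds, the prostaglandin D synthase gene, which oligodendrocytes and choroid plexus also express, at 958, 2025 and 1667 CPM and 1.74-fold higher (1.71 to 1.77; corrected ratio 1.47, inside the limit). The part of meninges in the tissue taken was not tested.

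Blood leukocyte genes had 2 higher, 0 lower and 8 neither of 10 measured, and 7 of the 10 had a log2 ratio below 0. S100a9, a calcium-binding alarmin of neutrophils, had 3 (sham), 47 (vehicle) and 49 counts (AGNHW), a ratio of 16.8 (5.43 to 84.4). The other was Cd4, the co-receptor gene of helper T cells, with 160, 215 and 285 counts, 1.84-fold higher (1.51 to 2.24). The T cell genes Cd3e, Cd3g and Cd8a of the same list were not among the gene symbols counted. The cells that gave the Cd4 reads were not tested. Of the other neutrophil genes listed, S100a8 had 0, 25 and 24 counts and Retnlg 0, 7 and 16, both under the limit on mean CPM. Ly6g, Camp, Ngp, Mpo and Elane were looked up but were not among the gene symbols counted. The pan-leukocyte gene Ptprc had 38, 8 and 25 counts, a ratio of 0.678 (0.392 to 1.15). The summed level of the leukocyte list was 126 (sham), 164 (vehicle) and 141 CPM (AGNHW). Lcn2, which neutrophils also make, moved with S100a9 in the same libraries, and the part of neutrophils in the Lcn2 value was not tested.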

How the data were processed

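Total RNA from brain was sequenced in 3 libraries, each assigned to its group by its title. The files deposited by the authors hold unnormalised integer read counts by gene symbol. The submitters' processing notes name HTSeq 0.6.0, TopHat2 2.0.12 and Bowtie2 2.2.3 and the build mm9, in no stated order. Settings, strand included, are absent from the sources used here, so a gene cannot be told from one that overlaps it, on either strand. No gene summed to under 21 counts over the libraries, so the deposited counts lack rarer genes.

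Scaling factors were the trimmed mean of M-values over all 3 libraries from edgeR 4.0.16 (R 4.3.3), at 1.03 for sham, 0.968 for vehicle and 1.0 for AGNHW. The rest was done in Python 3.11.15 (pandas 2.3.3, numpy 2.4.6, matplotlib 3.10.9, scipy 1.17.1). A ratio has the exact 95% conditional binomial (Clopper-Pearson) interval of its counts. No molecular identifiers are described, so reads may not be independent molecules, and intervals and floors cover counting error only. A count of 0 was set to a floor of 3 counts, which is 0.159 CPM in sham and 0.164 CPM in AGNHW, and the fold is then a lower bound. Log2 ratios used a prior count of 5. With 1 library per group there is no test and no p-value.

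The correction was a spline with 5 knots on the length and GC content of the longest GENCODE M21 transcript, fitted on genes of at least 10 CPM; 99.2% of measured genes had both values. The 55 lists held 1427 symbols, of which 1334 were counted. Named genes were the 10 highest and 10 lowest whose larger count was 50 or more and whose name was not a predicted or clone name, in each list the 3 members with the largest log2 ratio and every other member called, and a fixed set of markers (Aif1, Gfap, Bdnf, Cldn5, Dcx, Kdr, Mki67, Nes, Pecam1, Sox2 and Vegfa); not every gene so chosen is described, and a few genes are not reported here. List members that were not called are named to complete a class. The comparison, the lists and their members were chosen with earlier results of these data known, so they are no independent evidence of direction. The scripts were tested on simulated counts. Alternatives were plain CPM, DESeq2 1.42.0 size factors, scaling over the 2 libraries compared, other filters, another prior count, a ratio of 2 and the correction. Promoter windows are from the RefSeq table on GRCm38.p6; the deposited counts use mm9, and no coordinates were converted.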

Additional observations from a re-analysis of the deposited data

How the results depend on the processing

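The main counts were 517 genes higher and 851 lower. A mean of at least 5 CPM, which leaves 11917 genes, gave 206 higher and 445 lower, and a ratio limit of 2 gave 179 and 192. Correction for length and GC gave 399 higher and 515 lower, so 43.7% of the called genes were higher in place of 37.8%. Plain CPM gave 462 and 995 (31.7% higher) and moved the median of all genes to -0.03, DESeq2 size factors gave 521 and 847, and no filter gave 656 and 1023. Scaling over the 2 libraries compared and a prior count of 1 left the counts at 517 and 851. Of 55 list medians, 1 was counted as reversed under the correction, that of the sex chromosome genes (4 measured), from -0.17 to 0.19. Another 13 were counted as moved. Medians that began nearer 0 and changed sign were not counted as reversed, such as that of long nuclear noncoding RNAs, from -0.06 to 0.22. The cause was not tested. The interferon-stimulated median was -0.93 with the stricter filter and -1.02 with the correction. No paired analysis was possible because each group had 1 library, and for the same reason no replicate could be left out. Counting error limits genes of few counts: a gene with under 50 counts in both libraries can differ by 1.5-fold without being called, as Mki67 did. What the comparison cannot show is whether any difference recurs between animals.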

Other observations

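Genes in this section lie outside the rule for named genes and were chosen after their values were seen. Further interferon-related genes were lower in AGNHW than in sham. Rnf213, an antimicrobial ubiquitin ligase, was at 17.5 (sham), 4.01 (vehicle) and 5.37 CPM (AGNHW), 3.26-fold lower (2.59 to 4.13). Samd9l, a restriction factor gene, was 2.13-fold lower (1.41 to 3.28), Sp100, a nuclear body gene, 2.05-fold lower (1.5 to 2.83), Trim25, a ubiquitin ligase that activates RIG-I, 1.60-fold lower (1.24 to 2.08), and Parp9 1.70-fold lower (1.14 to 2.57). The membrane proteins of the Ifitm family differed in direction. Ifitm3, which blocks viral entry, was 1.73-fold lower (1.49 to 2.0), whereas Ifitm1 and Ifitm2 were 1.61-fold (1.17 to 2.21) and 1.60-fold (1.26 to 2.04) higher, the last 2 inside the limit after correction. The interferon receptor and kinase genes were close to sham, with ratios of 0.924 (0.831 to 1.03) for Ifnar1, 1.03 (0.864 to 1.23) for Ifnar2, 0.951 (0.787 to 1.15) for Ifngr1, 0.918 (0.859 to 0.980) for Jak1 and 1.08 (0.947 to 1.24) for Tyk2. Nr3c1, the glucocorticoid receptor gene, was at 50.6 (sham), 25.0 (vehicle) and 31.4 CPM (AGNHW), 1.61-fold lower (1.45 to 1.79), with a corrected ratio of 0.776 inside the limit.

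Enzymes of lipid mediators and of purine and ceramide breakdown were among the higher genes. Pla2g3, a secreted phospholipase gene, was at 6.86 (sham), 21.0 (vehicle) and 19.9 CPM (AGNHW), 2.90-fold higher (2.37 to 3.57), and the lipoxygenase gene Alox12b was 2.44-fold higher (1.95 to 3.06). Xdh, the xanthine dehydrogenase gene, was at 9.83, 17.8 and 23.2 CPM, 2.36-fold higher (1.98 to 2.82), and Acer2, an alkaline ceramidase gene, was 2.30-fold higher (1.93 to 2.75). Lbp, the lipopolysaccharide binding protein gene, was 1.89-fold higher (1.51 to 2.36).

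Some genes set AGNHW apart from both other libraries. Gm15446 had 7 counts in sham, 3 in vehicle and 175 in AGNHW, and Tmem254a had 275, 261 and 838. In the other direction, Gm28438 had 615, 557 and 83 counts, Gm49980 368, 360 and 61, and Erdr1 490, 322 and 183. Aim2, a cytosolic DNA sensor gene, had 20, 20 and 75 counts, 3.86-fold higher (2.33 to 6.68), and Podxl, a sialomucin gene of vessels, was at 33.1, 29.8 and 60.5 CPM, 1.83-fold higher (1.65 to 2.02). Several of these are predicted genes or have close copies, and reads may have been split among them. Rps27a was at 46.4, 162 and 137 CPM, 2.96-fold higher (2.74 to 3.20), and with 2 pseudogenes added it was 2.58-fold higher (2.40 to 2.78).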
